A study of Caenorhabditis elegans with 12 samples.

Results

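The genes described here are the C. elegans genes named lgc-, acr-, glr- or glc-, which encode subunits of ligand-gated ion channels. They were taken by name from the WBcel235 annotation, and 51 of the 89 genes so named were in the matrix of 14326 genes. By name group these were 30 of 56 lgc genes, 13 of 21 acr genes, 5 of 8 glr genes and 3 of 4 glc genes, and the other 38 were not analysed here. Of the 51, 49 passed the expression filter (above 1 CPM, the read count scaled to a library total of 1000000, in at least 3 of 12 libraries) and were tested, while acr-23 and lgc-20 lay below it. The rule itself uses names alone. It applies to the genes in the matrix, and each of these exceeds 1 CPM in at least 2 libraries, so the 51 genes also depend on measured level.

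Ligand-gated ion channels open when a transmitter binds to them and so turn a chemical signal into a current within milliseconds. The acr genes encode relatives of the nicotinic acetylcholine receptor, and the glc genes encode glutamate-gated chloride channels, which the drug ivermectin opens. The glr genes encode ionotropic glutamate receptors of the vertebrate kind, and the lgc genes are a large mixed set of the Cys-loop superfamily that includes channels gated by acetylcholine, choline, GABA and biogenic amines. Most are known from neurons and muscle, where many of them are made in small sets of cells.

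Messenger RNA was sequenced from whole worms, as a bulk sample, at a stage before they were fertile, from plates with OP50 bacteria at 20 °C. Each of the 4 genotypes had 3 libraries. These were wild type (WT), a mutant of isp-1, the double mutant isp-1;sod-3 (the sod-3 double below) and the double mutant isp-1;sod-5 (the sod-5 double). All groups other than WT thus carry a mutation of isp-1, the gene of the Rieske subunit of mitochondrial complex III, while sod-3 and sod-5 encode superoxide dismutases. The labels name no alleles. The design text describes 9 biological replicates per genotype with the RNA of 3 joined in each library, and the pooling label says none, so the spread between libraries may in part be technical. In whole worms, fewer cells of a type and less RNA per cell cannot be told apart.

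Library depth ran from 5438798 to 155071752 reads in genes, so 1 read was worth between 0.00645 and 0.184 CPM. No channel gene was at 0 in any library, and the lowest value was 2 reads. The sod-3 gene averaged 2.08 CPM in WT, 19.8 CPM in isp-1 and 19.4 CPM in the sod-5 double. In the sod-3 double it was at 0.148, 1.47 and 1.74 CPM, below all isp-1 libraries (log2 -3.83, adjusted p = 0.000123), and its difference from WT did not pass (adjusted p = 0.138). The sod-5 gene did not pass the filter and is a weaker check: it averaged 0.172 CPM in WT, 0.418 CPM in isp-1, 1.15 CPM in the sod-3 double and 0.179 CPM in the sod-5 double, and isp-1 and the sod-5 double overlapped. The isp-1 transcript itself was present in all genotypes, at 295 CPM in WT and 339 CPM in isp-1. All 18 pan-neuronal marker genes were detected, with a summed level between 706.9 and 885.4 CPM per library, so RNA of neurons was present in every library. Between isp-1 and WT, 0 of those 18 markers passed the test with limma, edgeR or DESeq2, with 1 at an unadjusted p below 0.05. Sperm markers were lower in isp-1 than in WT (9 of 12 tested), with summed levels of 178.9 to 183.0 CPM in WT and 66.9 to 91.6 CPM in isp-1. Of the other marker lists, 2 of 4 pharyngeal muscle genes were lower, 1 of 7 intestinal genes was higher and 2 were lower, and 1 of 7 hypodermal genes was lower. These are limma calls, and over all tested genes limma called 9.60% higher and 10.4% lower. With edgeR 9 sperm, 3 pharyngeal, 4 intestinal and 1 hypodermal genes were called, and with DESeq2 10, 4, 4 and 3. Those with an unadjusted p below 0.05 by limma were 10, 4, 4 and 3. Of 10 body wall muscle genes and 9 oocyte genes, 0 passed with limma and 0 with edgeR, and DESeq2 called 1 muscle gene, while 1 muscle gene and 0 oocyte genes had an unadjusted p below 0.05.

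The channel genes were measured at low levels in all genotypes. Their median level over the 12 libraries was 2.54 CPM, against 14.05 CPM for all genes, and 24 of the 51 averaged under 2 CPM while 4 averaged over 10 CPM. Per kb of exon, the scale on which genes can be compared, the median channel gene was at 1.26 CPM per kb and the median of all genes at 10.4 CPM per kb. Only lgc-22, lgc-34 and glc-1 exceeded that all-gene median. The lowest was acr-23, which encodes a betaine receptor, at 0.385 CPM per kb.

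Levels differed among the name groups. The glc genes had the highest median, 6.27 CPM per kb over 3 genes, followed by glr at 1.66, lgc at 1.26 and acr at 0.588 CPM per kb. Among lgc genes the highest levels were those of lgc-22 (20.1 CPM per kb), lgc-34 (12.3 CPM per kb) and lgc-21 (9.61 CPM per kb). Among glc genes, glc-1, an alpha subunit of the glutamate-gated chloride channel, was at 11.6 CPM per kb. The beta subunit gene glc-2 was at 6.27 CPM per kb and glc-4 at 1.80 CPM per kb. The highest acr genes were acr-18 (2.42 CPM per kb), acr-16 (2.08 CPM per kb), which encodes the nicotine-sensitive receptor of body wall muscle, and acr-15 (1.91 CPM per kb). The glutamate receptor genes glr-6, glr-4 and glr-5 lay close together, at 1.82, 1.79 and 1.66 CPM per kb. The AMPA-type subunit genes glr-2 and glr-1, known from command interneurons, were lower, at 0.592 and 0.458 CPM per kb.

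**Figure D1:**
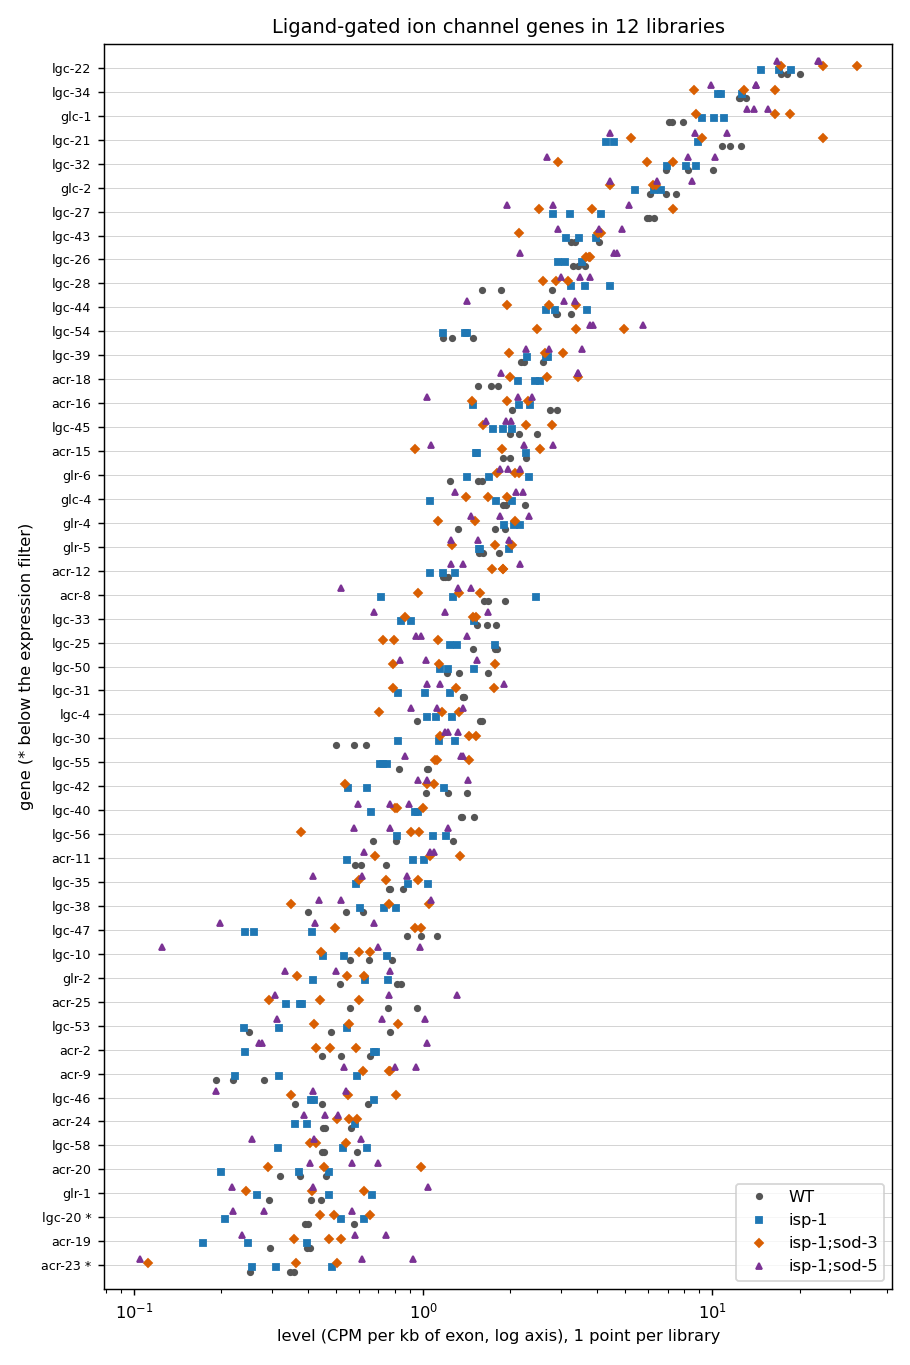
Levels of the 51 channel genes in CPM per kb of exon (log axis), with 1 point per library and colour and shape by genotype, ordered by mean level. The 4 genotypes lie close together for most genes, whereas the mean levels of the genes span 0.385 to 20.1 CPM per kb.

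The family is spread over all chromosomes. Of the 51 genes, 13 are on X (25.5%), against 13.8% of all annotated genes in the matrix, and 12 are on V, 10 on II, 7 on IV, 6 on III and 3 on I. The 89 annotated family members have 30.3% on X. Exons of 23 of the 51 overlap a gene on the opposite strand, and for lgc-54 and glr-2 the overlap exceeds 10% of the exon bases. Whether reads were counted by strand is not stated, so reads of such a pair cannot be told apart.

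In the isp-1 mutant 3 channel genes differed from WT. The lgc-28 and lgc-30 genes rose, by 1.70-fold and 1.59-fold, and lgc-47 fell, being 2.22-fold lower. The other 46 of 49 did not pass limma at a Benjamini-Hochberg adjusted p below 0.05 over all 14013 tested genes, the threshold used throughout. Over all tested genes 9.60% were called higher and 10.4% lower, or 20.0% either way, and 3 of 49 channel genes are 6.12%. The difference between these shares was not tested. The count was 0 without WT replicate 1 or 2 or isp-1 replicate 1 or 3. Of all tested genes 8.74%, 8.40%, 7.93% and 7.76% were called in those fits. When WT and isp-1 alone were fitted it was 8 of 49 (16.3%), beside 40.7% of all tested genes in that fit. Of 4498 tested genes averaging under 5 CPM 26.3% were called, and of the 36 channel genes among them 3 were called. The median log2 difference of the 49 was -0.10, against 0.01 for all tested genes, and 17 of 49 differences were above 0, against 50.8% of all genes. The median SE of a log2 difference was 0.25 for channel genes and 0.19 for all genes. Sperm and pharyngeal markers were also lower in isp-1 (above), and their part in these values was not tested.

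The gene lgc-47 (WBGene00009799, X:9801081-9807662, minus strand) encodes a channel of the branch that includes the acetylcholine-gated chloride channels. It was measured at 2.11, 1.87 and 1.67 CPM in the WT libraries and at 0.493, 0.784 and 0.459 CPM in isp-1. It was at 1.78, 0.938 and 1.87 CPM in the sod-3 double and at 0.376, 1.29 and 0.799 CPM in the sod-5 double. All isp-1 libraries were below all WT libraries and below all libraries of the sod-3 double, while the libraries of the double mutants overlapped each other. The mean fell from 1.88 ± 0.221 to 0.579 ± 0.179 CPM in isp-1 (SD, n = 3 each), a log2 difference of -1.15 from WT (SE 0.29, adjusted p = 0.0156). In the sod-5 double it was lower than in WT by the same test (log2 -0.91, adjusted p = 0.0353), and for the sod-3 double against isp-1 the log2 difference was 0.89 with an adjusted p = 0.260. The call in isp-1 was lost without WT replicate 1 or 2 or isp-1 replicate 1 or 3, at an adjusted p of 0.0549 to 0.0659. The call in the sod-5 double was lost without any WT library or without replicate 1 or 3 of that double, at an adjusted p of 0.0625 to 0.120.

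Its relative lgc-46, which encodes an acetylcholine-gated chloride channel, was not called and averaged 0.929 CPM in WT and 0.961 CPM in isp-1.

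A neighbour of lgc-47 showed a larger difference between the genotypes, and it is given here after its values were seen. F36G3.2 (WBGene00009483, X:9792406-9794273, minus strand) lies 6808 bases from lgc-47 on the same strand. It was at 12.2, 15.1 and 15.1 CPM in WT and at 1.05, 0.959 and 0.230 CPM in isp-1. It was at 11.7, 7.97 and 12.5 CPM in the sod-3 double and at 0.470, 0.552 and 0.849 CPM in the sod-5 double. WT and the sod-3 double stood far above isp-1 and the sod-5 double, with no overlap between these pairs of genotypes. Against WT F36G3.2 fell by 3.63 on the log2 scale in isp-1 (SE 0.29, adjusted p = 5.0e-06) and fell by 3.71 in the sod-5 double (adjusted p = 1.8e-06), and against isp-1 it was higher in the sod-3 double (log2 3.22, adjusted p = 6.4e-05). Between the doubles it was higher in the sod-3 double (log2 3.31, adjusted p = 0.000192), and these 4 calls held under all 23 alternatives. The other tested genes within 20 kb of lgc-47, F36G3.1, dpy-22 and rrc-1, did not pass in any comparison. Whether the levels of lgc-47 and F36G3.2 are linked was not tested.

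The gene lgc-30 (WBGene00019069, IV:924882-939736, plus strand) was the channel gene called higher than WT in all 3 mutant genotypes. Its values were 1.15, 0.908 and 1.05 CPM in WT, and 2.34, 1.48 and 2.07 CPM in isp-1. They were 2.62, 2.08 and 2.78 CPM in the sod-3 double and 2.16, 2.21 and 2.40 CPM in the sod-5 double. No mutant library reached down to the WT range, and the 3 mutant genotypes overlapped each other. The log2 difference from WT was 0.67 in isp-1 (adjusted p = 0.0362). It was 0.96 in the sod-3 double (adjusted p = 0.00663) and 0.85 in the sod-5 double (adjusted p = 0.0106), with an SE of 0.20 throughout. Neither double differed from isp-1 by the test, with log2 0.29 and 0.18 (adjusted p = 0.762 and 0.786). The call in isp-1 was lost without any 1 WT library, isp-1 replicate 1 or 3, or replicate 1 of the sod-3 double (adjusted p 0.0523 to 0.143), and that in the sod-5 double without WT replicate 2 (adjusted p = 0.0519). Of 3 other genes tested within 20 kb, 1 was called higher than WT in each mutant genotype and 0 were called lower. This was F58H7.5, 4074 bases away on the same strand, given here after its values were seen. Its log2 differences were 1.74 in isp-1, 2.09 in the sod-3 double and 2.30 in the sod-5 double (adjusted p = 9.9e-05, 1.3e-05 and 5.2e-06). Whether the levels of lgc-30 and F58H7.5 are linked was not tested.

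The gene lgc-28 (WBGene00044301, II:2625092-2627109, plus strand) was at 2.36, 2.03 and 3.56 CPM in WT and at 4.13, 4.62 and 5.63 CPM in isp-1. It was at 3.64, 4.02 and 3.29 CPM in the sod-3 double and at 4.42, 4.78 and 3.797 CPM in the sod-5 double. All isp-1 libraries were above all WT libraries, and the sod-3 double overlapped WT. The rise in isp-1 was 0.77 on the log2 scale (SE 0.21, adjusted p = 0.0249), and the call was lost without WT replicate 1 or 2 or any isp-1 library (adjusted p 0.0516 to 0.111). The rise in the sod-5 double was 0.64 (SE 0.21, adjusted p = 0.0434) and is uncertain: it was lost under 14 of 23 alternatives. Among these were median centring (adjusted p = 0.0832), TMM factors (0.0833), edgeR (0.130), DESeq2 (0.122), a fit of the compared groups alone (0.0746) and 8 omitted libraries (0.0531 to 0.178). The omitted libraries were WT replicates 1 and 2, all isp-1 libraries, replicate 1 of the sod-3 double and replicates 1 and 2 of the sod-5 double. Of 6 other genes tested within 20 kb, 3 were called lower than WT in isp-1 and 0 higher. In the sod-3 double 2 were lower and 0 higher, and in the sod-5 double 2 and 1. Among them D2062.4, 562 bases away on the same strand, was lower in each mutant genotype. It is given here after its values were seen, with log2 -1.41 in isp-1 (adjusted p = 0.0102).

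**Figure D2:**
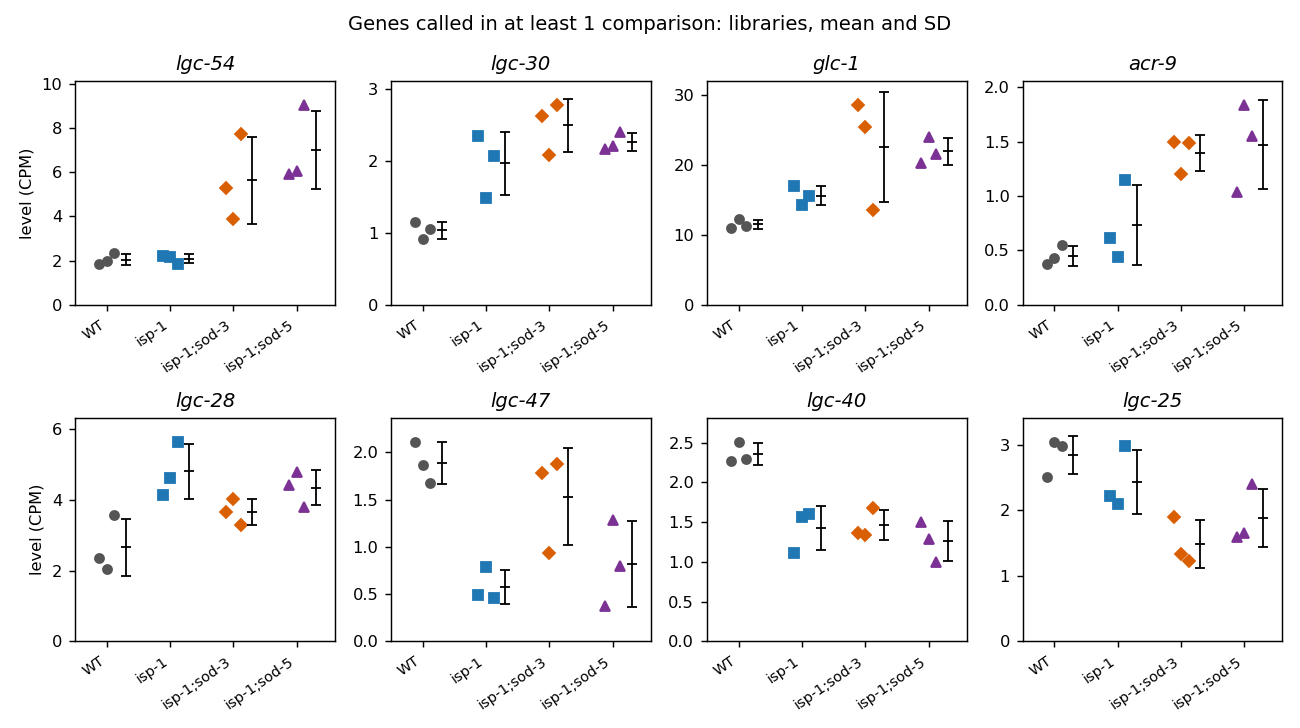
Levels in CPM (linear axes starting at 0) of the 8 channel genes called in at least 1 of the 6 comparisons, with 1 point per library and the mean with its SD beside each genotype (n = 3). The gene lgc-54 stands above WT and isp-1 in all 6 libraries of the double mutants. The mean of lgc-47 is lowest in isp-1, whose libraries lie within the range of the sod-5 double.

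In both double mutants against isp-1 the same channel gene passed the test, lgc-54, which belongs to the branch of amine-gated chloride channels. Of 49 tested genes it was the only one called in the sod-3 double against isp-1 (1 higher, 0 lower, with 0.557% of all tested genes called higher and 0.528% lower) and in the sod-5 double against isp-1 (1 higher, 0 lower, with 0.642% and 0.564%). Those comparisons share the isp-1 libraries. Medians over the 49 were 0.10 for the sod-3 double and 0.08 for the sod-5 double, against 0.03 and 0.05 for all tested genes.

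The values of lgc-54 (WBGene00020528, V:6840217-6846607, minus strand) were 1.83, 1.98 and 2.34 CPM in WT and 2.22, 2.18 and 1.84 CPM in isp-1. They were 5.27, 3.88 and 7.74 CPM in the sod-3 double and 5.92, 6.07 and 9.04 CPM in the sod-5 double. WT and isp-1 overlapped each other fully, and every library of either double was above every library of both. Against isp-1 the rise was 2.31-fold in the sod-3 double (log2 1.21, SE 0.25, adjusted p = 0.0296) and 2.87-fold in the sod-5 double (log2 1.52, SE 0.25, adjusted p = 0.00561). Against WT it was 2.34-fold (log2 1.22, adjusted p = 0.00446) and 2.91-fold (log2 1.54, adjusted p = 0.000832), while isp-1 and WT differed by log2 0.02 (adjusted p = 0.969). The direct comparison of the doubles gave log2 -0.32 for the sod-3 minus the sod-5 double (SE 0.25, adjusted p = 0.920). The call of the sod-3 double against isp-1 was lost when any WT library, any isp-1 library or replicate 1 or 3 of the sod-3 double was omitted (adjusted p 0.0525 to 0.158) and when only the groups compared were fitted (0.118). The other 3 calls held under all 23 alternatives.

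The annotation places lgc-54 across another gene, which bears on these reads. Of its 1568 exon bases, 188 (11.99%) overlap exons on the plus strand, 148 of them in T15B7.1 and 40 in hpo-8. T15B7.1 (V:6842737-6846671) covers 60.6% of the span of lgc-54 and is read far more deeply. Its level was 78.3 ± 3.78 CPM in WT, 72.1 ± 3.24 CPM in isp-1, 127.6 ± 5.86 CPM in the sod-3 double and 128.1 ± 17.2 CPM in the sod-5 double (SD, n = 3 each). T15B7.1 rose in both doubles against isp-1, by 0.82 on the log2 scale in each (adjusted p = 0.000623 and 0.000665). The level of hpo-8 was 109.0 ± 4.92 CPM in WT, 118.6 ± 2.47 CPM in isp-1, 138.7 ± 3.26 CPM in the sod-3 double and 161.3 ± 30.98 CPM in the sod-5 double. It rose in the sod-5 double against WT (log2 0.55, adjusted p = 0.00456) and did not pass against isp-1 in either double (adjusted p = 0.633 and 0.108). The level of lgc-54 as a percentage of that of T15B7.1 was 2.46% to 2.90% in WT and 2.66% to 3.101% in isp-1. It was 3.21% to 5.93% in the sod-3 double and 4.95% to 6.13% in the sod-5 double, so the libraries of the doubles also lay above WT and isp-1 on this scale. The part of T15B7.1 and hpo-8 reads in the values of lgc-54 was not tested.

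**Figure D3:**
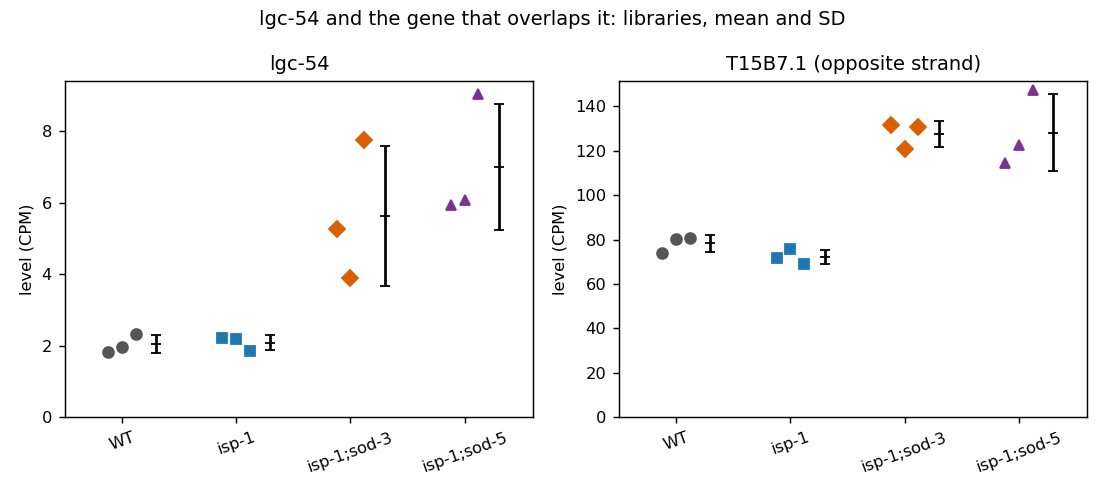
Levels in CPM of lgc-54 (left) and of T15B7.1 on the opposite strand (right), with 1 point per library and the mean with its SD beside each genotype (n = 3). Both genes are higher in the 6 libraries of the double mutants, at 3.88 to 9.04 CPM and 114.5 to 147.4 CPM, than in WT and isp-1.

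Other channel genes stood apart between the doubles and isp-1 without passing the test. Counting lgc-54, libraries of the sod-3 double lay wholly above isp-1 for 6 of 49 and wholly below for 2. Of all 14013 tested genes 1232 lay above and 948 below. In the sod-5 double 3 channel genes lay above and 0 below, beside 1536 and 815 of all tested genes. The shares were not compared by a test. A pair of genes that were higher is given here after their values were seen. The tyramine-gated chloride channel gene lgc-55 was at 1.23, 1.31 and 1.26 CPM in isp-1, at 1.91, 1.94 and 2.52 CPM in the sod-3 double and at 1.505, 2.39 and 2.35 CPM in the sod-5 double. Every double-mutant library was above every isp-1 library, while WT, at 1.44 to 1.81 CPM, lay between isp-1 and the sod-3 double and overlapped the sod-5 double. The log2 differences of 0.56 and 0.53 from isp-1 had adjusted p = 0.397 and 0.337. The motor neuron acetylcholine receptor gene acr-12 was at 2.40, 2.18 and 2.64 CPM in isp-1 and at 3.55, 3.88 and 3.87 CPM in the sod-3 double, with no overlap (log2 0.56, SE 0.21, adjusted p = 0.389).

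Against WT, 5 channel genes were called in the sod-3 double and 7 in the sod-5 double. In the sod-3 double lgc-54, lgc-30, glc-1 and acr-9 rose and lgc-25 fell. In the sod-5 double lgc-54, glc-1, lgc-30, acr-9 and lgc-28 rose and lgc-40 and lgc-47 fell. With TMM factors the 7 calls in the sod-5 double were 4 higher and 3 lower, with lgc-27 in place of lgc-28. Over all tested genes 10.4% were called higher and 6.57% lower in the sod-3 double, and 14.1% higher and 10.2% lower in the sod-5 double. Of the 49 channel genes 10.2% and 14.3% were called, and their median log2 difference was -0.08 in each, against 0.01 and 0.04 for all tested genes. Counting all 6 comparisons, 8 channel genes were called at least once and 41 of the 49 tested were called in none. Both comparisons use the same WT libraries.

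The glutamate-gated chloride channel gene glc-1 (WBGene00001591, V:16219634-16221917, plus strand) was at 10.99, 12.2 and 11.3 CPM in WT and at 16.9, 14.3 and 15.6 CPM in isp-1. It was at 28.6, 25.4 and 13.6 CPM in the sod-3 double and at 20.3, 24.1 and 21.6 CPM in the sod-5 double. All mutant libraries were above all WT libraries, and replicate 3 of the sod-3 double was below isp-1 while its other libraries were the highest of all. The rise over WT was 1.84-fold in the sod-3 double (log2 0.88, SE 0.21, adjusted p = 0.0143) and 1.87-fold in the sod-5 double (log2 0.91, SE 0.21, adjusted p = 0.00944), and the log2 difference of isp-1 from WT was 0.42 (adjusted p = 0.186). The sod-3 call was lost without WT replicate 1 or replicate 1 of that double (adjusted p 0.0566 and 0.0643) and with the compared groups alone (0.0609). Without replicate 3 of the sod-3 double, glc-1 was also called in isp-1 against WT and in the sod-3 double against isp-1. The sod-5 call held under all 23 alternatives. Of 6 other genes tested within 20 kb, F11A5.9, 1928 bases away on the same strand, was called higher than WT in each mutant genotype. It is given here after its values were seen, with log2 1.10, 1.57 and 1.21 in isp-1, the sod-3 double and the sod-5 double (adjusted p = 0.0264, 0.00463 and 0.0149). Of the 6 genes, 2, 1 and 2 were lower in the same order. Whether the levels of glc-1 and F11A5.9 are linked was not tested. The other glc genes did not pass: the beta subunit gene glc-2 averaged 10.3 CPM in WT, 9.23 CPM in isp-1, 8.58 CPM in the sod-3 double and 9.77 CPM in the sod-5 double.

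The acetylcholine receptor gene acr-9 (WBGene00000048, X:13642313-13646898, minus strand) had few reads. It was at 0.373, 0.427 and 0.549 CPM in WT, at 0.616, 0.436 and 1.15 CPM in isp-1, at 1.496, 1.21 and 1.48 CPM in the sod-3 double and at 1.03, 1.84 and 1.55 CPM in the sod-5 double. Both doubles lay above all WT libraries, and isp-1 overlapped WT and the sod-5 double. Of the 12 libraries 7 were above 1 CPM, namely those of the doubles and replicate 3 of isp-1. The gene thus passed the filter through the genotypes where it was high, and its calls against WT carry that selection. The alternatives do not remove it, as the matrix itself holds only genes above 1 CPM in at least 2 libraries. Compared with WT, acr-9 rose by 0.998 on the log2 scale in the sod-3 double (SE 0.25, adjusted p = 0.0167) and by 1.04 in the sod-5 double (adjusted p = 0.0107). The first was lost without WT replicate 1 or 2 or replicate 1 of the sod-3 double (adjusted p 0.0580 to 0.0719), and the second held under all 23 alternatives. Of 4 other genes tested within 20 kb, 0 were called in any comparison.

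The gene lgc-40, whose product is gated by serotonin, choline and acetylcholine (WBGene00020767, X:2360097-2364821, plus strand), was lower in the sod-5 double than in WT. Its values were 2.27, 2.51 and 2.29 CPM in WT, 1.11, 1.57 and 1.61 CPM in isp-1, 1.37, 1.34 and 1.68 CPM in the sod-3 double and 1.505, 1.29 and 0.999 CPM in the sod-5 double. All 9 mutant libraries were below all WT libraries. The log2 difference was -0.70 in the sod-5 double (SE 0.20, adjusted p = 0.0249), and in isp-1 and the sod-3 double it was -0.58 and -0.55 without passing (adjusted p = 0.0637 and 0.0824). The call was lost without any WT library or without replicate 3 of the sod-5 double (adjusted p 0.0647 to 0.0933). Within 20 kb 5 other genes were tested. Against WT 1 of them was called higher in isp-1 and 2 in each double, and 0 were called lower.

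The gene lgc-25 (WBGene00010994, X:14158785-14161734, minus strand) was lower in the sod-3 double than in WT. Its values were 2.51, 3.05 and 2.98 CPM in WT, 2.22, 2.09 and 2.99 CPM in isp-1, 1.90, 1.34 and 1.23 CPM in the sod-3 double and 1.60, 1.65 and 2.40 CPM in the sod-5 double. Libraries of the sod-3 double lay below all of WT and isp-1, and those of the sod-5 double below all of WT. The log2 difference from WT was -0.76 in the sod-3 double (SE 0.22, adjusted p = 0.0325) and -0.50 in the sod-5 double (adjusted p = 0.117). The call was lost without any WT library or without replicate 2 or 3 of the sod-3 double (adjusted p 0.0619 to 0.115). Of 6 other genes tested within 20 kb, 0 were called in any comparison.

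**Figure D4:**
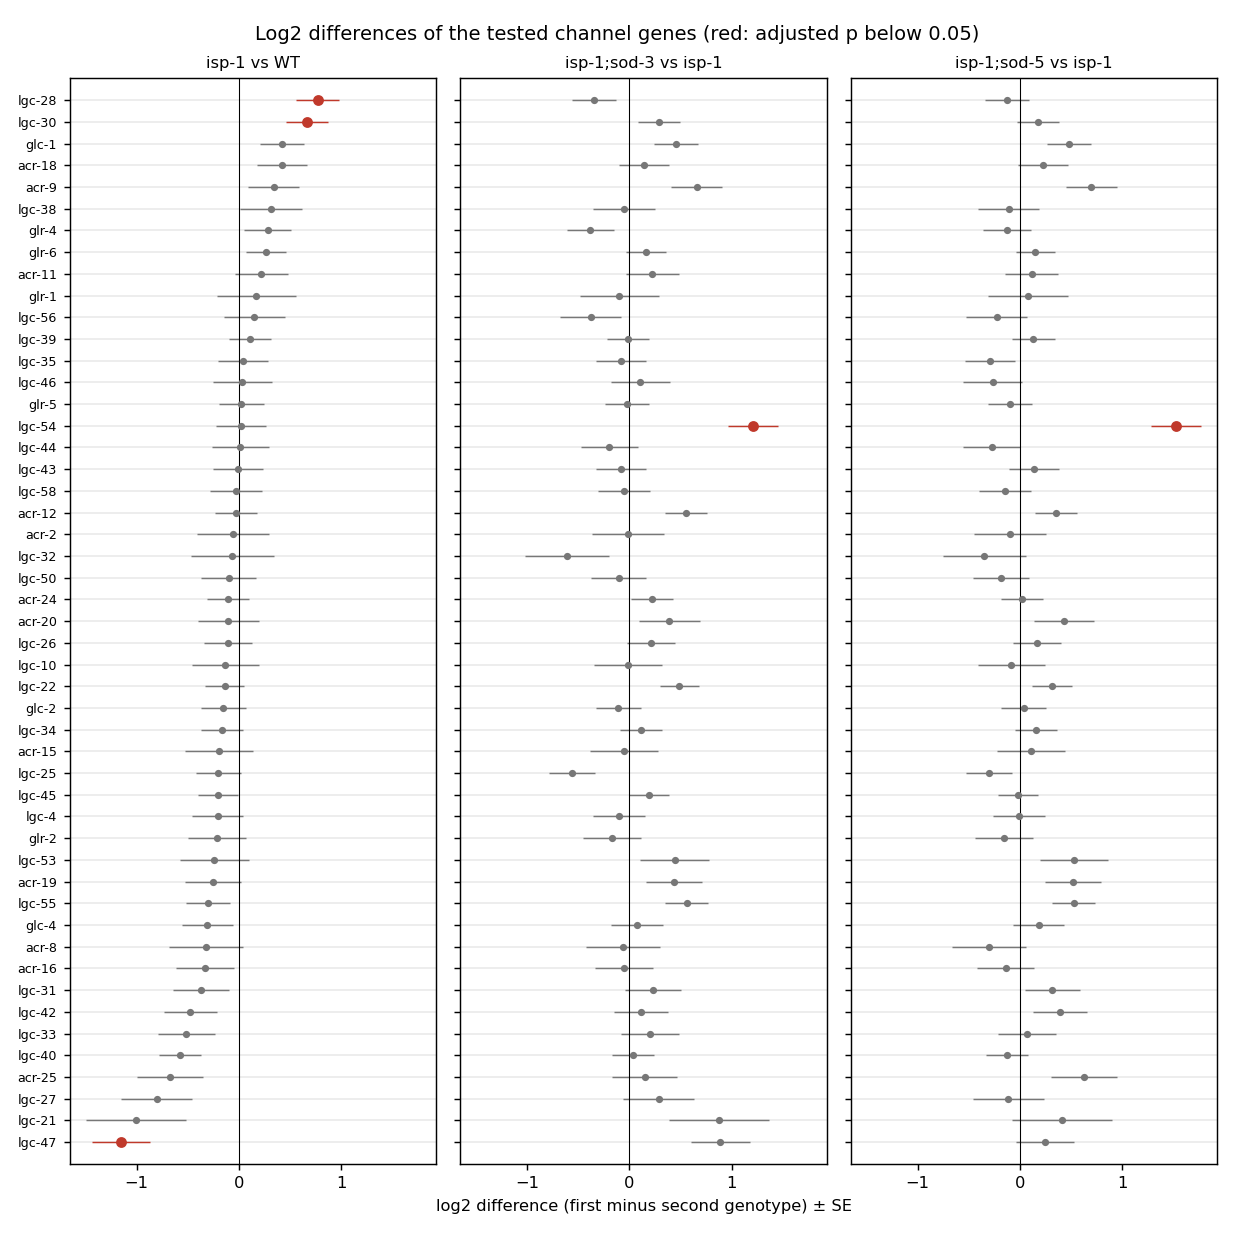
Log2 differences (first minus second genotype, with SE) of the 49 tested channel genes for isp-1 against WT and for each double mutant against isp-1, ordered by the first, with genes called at an adjusted p below 0.05 in red. In isp-1 against WT 3 genes are red (lgc-28, lgc-30 and lgc-47), and in either double against isp-1 the red gene is lgc-54.

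The double mutants did not differ from each other in any channel gene by the test. With limma, edgeR and DESeq2 alike 0 of 49 were called, against 0.107% of all tested genes, and 1 channel gene, lgc-47, had an unadjusted p below 0.05. Its log2 difference was 0.64 (SE 0.29), higher in the sod-3 double, where it averaged 1.53 CPM against 0.821 CPM.

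Spread between libraries limits what could be seen for several members. The median within-group SD of log2 levels of the channel genes was 0.14 in WT, 0.23 in isp-1, 0.35 in the sod-3 double and 0.38 in the sod-5 double, against 0.12, 0.13, 0.22 and 0.27 for all tested genes. The gene lgc-21 had the largest pooled within-group SD, 0.69. It was at 18.97, 16.3 and 17.3 CPM in WT, 6.47, 13.5 and 6.89 CPM in isp-1, 13.9, 7.90 and 36.3 CPM in the sod-3 double and 6.68, 16.9 and 13.1 CPM in the sod-5 double. All isp-1 libraries were below WT, but the sod-3 double ranged from under the WT values to above them, and the log2 difference of isp-1 from WT, -1.004 (SE 0.49), did not pass (adjusted p = 0.175). It was called without replicate 3 of the sod-3 double and when the compared groups alone were fitted. The gene lgc-27, named here after its values were seen, was at 8.88, 9.03 and 9.40 CPM in WT, 4.19, 6.19 and 4.82 CPM in isp-1, 5.72, 3.75 and 10.97 CPM in the sod-3 double and 2.92, 7.72 and 4.20 CPM in the sod-5 double. Its log2 difference from WT was -0.80 in isp-1 (adjusted p = 0.125) and -0.92 in the sod-5 double (adjusted p = 0.0731). The latter was called under 7 of 23 alternatives.

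Marker sums of several cell types followed the same order of libraries as these genes, in part or in full. The sum of the 12 of 15 listed sperm genes in the matrix was 178.9, 180.2 and 183.0 CPM in WT and 73.5, 91.6 and 66.9 CPM in isp-1. It was 108.1, 57.8 and 163.4 CPM in the sod-3 double and 65.5, 100.9 and 97.2 CPM in the sod-5 double. As for lgc-21 and lgc-27, replicate 3 was the highest and replicate 2 the lowest of the sod-3 double, replicate 2 was the highest of isp-1, and replicates 2 and 1 were the highest and the lowest of the sod-5 double. Within the sod-3 double, replicate 2 was also the lowest and replicate 3 the highest for body wall muscle (9694, 6440 and 11205 CPM), pharyngeal muscle (546.0, 356.6 and 608.4 CPM) and hypodermis (1899, 1241 and 2526 CPM), and the order was the opposite for oocyte markers (5635, 7270 and 5039 CPM). Replicate 2 was the highest of isp-1 for both muscle lists. Other orders differed from those of lgc-21 and lgc-27. In isp-1, replicate 3 was the lowest for sperm genes, while replicate 1 was the lowest for both channel genes. In WT, replicate 1 was the lowest for sperm genes and the highest for lgc-21. In the sod-5 double, replicate 3 was the highest for intestine (4558 CPM) and hypodermis (2124 CPM). It was the lowest of that double for body wall muscle (7195 CPM) and pharyngeal muscle (321.0 CPM). Replicate 1 was the highest of isp-1 for hypodermis (1938 CPM) and the highest of the sod-3 double for pan-neuronal genes (880.5 CPM). The order was also shared in part by the median log2 level of all tested genes. That median was lowest in replicate 2 of the sod-3 double (3.78) and replicate 1 of the sod-5 double (3.74). Its highest values in those doubles were in replicate 1 (4.02) and replicate 3 (4.11), unlike lgc-21 and lgc-27. The order is thus not particular to a cell type list. The part of these differences between libraries in the levels of the channel genes was not tested.

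**Figure D5:**
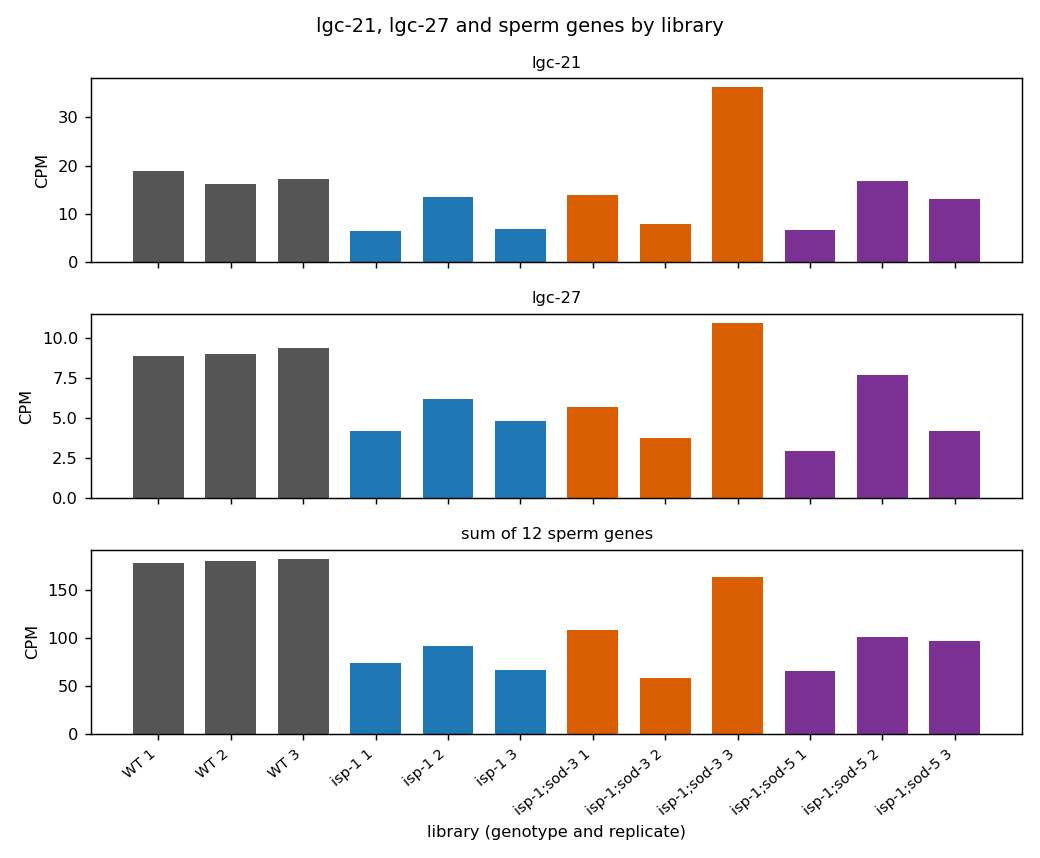
Levels in CPM of lgc-21, lgc-27 and the sum of 12 sperm marker genes, with 1 bar per library and colour by genotype (axes start at 0). In the sod-3 double, replicate 2 is lowest and replicate 3 highest in all 3 panels (for lgc-21, 7.90 and 36.3 CPM).

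Several of the more abundant members did not pass. The gene lgc-22, the highest of all per kb, was at 29.4, 26.6 and 25.3 CPM in WT, 24.95, 27.4 and 21.6 CPM in isp-1, 35.3, 25.4 and 46.3 CPM in the sod-3 double and 24.6, 34.0 and 34.3 CPM in the sod-5 double, so all mutant genotypes overlapped WT. It was called in the sod-3 double against WT when replicate 2 of that double was left out. The gene lgc-34 ranged from 17.6 to 18.6 CPM in WT, 14.8 to 17.95 CPM in isp-1, 12.3 to 23.2 CPM in the sod-3 double and 14.01 to 20.04 CPM in the sod-5 double. The highest acr gene, acr-18, averaged 2.73 CPM in WT, 3.83 CPM in isp-1, 4.36 CPM in the sod-3 double and 4.69 CPM in the sod-5 double, and its log2 difference of the sod-5 double from WT, 0.64, had an adjusted p = 0.0738. That difference was called under 4 of 23 alternatives, among them median centring and DESeq2.

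The acetylcholine receptor gene acr-25 also lay apart between isp-1 and WT without passing. It was at 1.74, 1.39 and 1.03 CPM in WT and at 0.616, 0.697 and 0.689 CPM in isp-1, with no overlap, and the ratio of the means was 0.482 (log2 difference on the scale with the pseudocount -0.67, SE 0.32, adjusted p = 0.160). It was called when only WT and isp-1 libraries were fitted. Over all channel genes, isp-1 libraries lay wholly above WT for 4 and wholly below for 8, against 26.0% and 25.7% of all tested genes.

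Several members with known transmitters did not pass in any comparison. The muscle nicotinic receptor gene acr-16 averaged 4.66 ± 0.847 CPM in WT, 3.63 ± 0.816 CPM in isp-1, 3.48 ± 0.765 CPM in the sod-3 double and 3.36 ± 1.31 CPM in the sod-5 double (SD, n = 3 each). The GABA-gated cation channel gene lgc-35 averaged 1.33, 1.41, 1.29 and 1.07 CPM in the same order. The serotonin-gated channel gene lgc-50 averaged 3.1, 2.85, 2.72 and 2.50 CPM, and the dopamine-gated channel gene lgc-53 averaged 0.904, 0.665, 1.08 and 1.23 CPM. In each of these 4 genes the libraries of neighbouring means overlapped.

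All 5 glutamate receptor genes of the glr group were tested and 0 were called in any of the 6 comparisons with limma, edgeR or DESeq2, with 1 unadjusted p below 0.05, that of glr-6 in the sod-3 double against WT. The glr-6 gene was at 4.84 ± 0.639 CPM in WT and 6.66 ± 0.610 CPM in the sod-3 double (SD, n = 3 each), where all 3 libraries were above WT (log2 0.43, SE 0.19, adjusted p = 0.143). The AMPA-type subunit gene glr-1 averaged 1.15, 1.41, 1.28 and 1.68 CPM in WT, isp-1, the sod-3 double and the sod-5 double. The sod-5 double ranged from 0.658 to 3.13 CPM, and its log2 difference from WT was 0.25 with an SE of 0.39 (adjusted p = 0.687).

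Of the genes below the filter, acr-23 averaged 0.572 ± 0.103 CPM in WT, 0.628 ± 0.216 CPM in isp-1, 0.585 ± 0.356 CPM in the sod-3 double and 0.981 ± 0.740 CPM in the sod-5 double. The gene lgc-20 averaged 0.761, 0.754, 0.886 and 0.596 CPM in the same order. Exact two-sided permutation tests on CPM gave p between 0.4 and 1.0 for acr-23 and between 0.3 and 1.0 for lgc-20 over the 6 comparisons, where 3 libraries against 3 cannot give less than 0.1.

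Other genes of synaptic transmission were followed as lists. Of 26 receptor subunit genes with other names, such as unc-29 and unc-38 of the levamisole receptor, 19 were in the matrix and 17 were tested. In each of the 6 comparisons limma, edgeR and DESeq2 called 0 of the 17, and an unadjusted p below 0.05 was found for 1 gene in the sod-5 double against WT, 1 between the doubles and 0 in the others. Their median log2 difference was -0.08 in isp-1 against WT.

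Genes of receptor assembly, clustering and auxiliary subunits were tested for 17 of 21. In isp-1 against WT 2 rose and 0 fell (median log2 -0.04), where 9.60% of all tested genes were called higher and 10.4% lower. These were madd-4, a secreted organizer of neuromuscular synapses (12.7 ± 1.68 against 7.06 ± 0.802 CPM, log2 0.81, adjusted p = 0.0108), and sol-2, an auxiliary protein of the GLR-1 receptor (2.64 ± 0.520 against 1.49 ± 0.0531 CPM, log2 0.65, adjusted p = 0.0360). In isp-1 the madd-4 call was lost without WT replicate 2 (adjusted p = 0.0538), and the sol-2 call without any 1 WT or isp-1 library or replicate 1 of the sod-3 double (adjusted p up to 0.150). Against WT madd-4 was at log2 1.27 in the sod-3 double and 1.13 in the sod-5 double (adjusted p = 0.000402 and 0.000968), and sol-2 at 1.002 and 1.08 (adjusted p = 0.00399 and 0.00217), and these calls held under all 23 alternatives. In the sod-3 double nra-2 was lower than in WT (177.7 against 218.6 CPM, log2 -0.30, adjusted p = 0.0240), which was lost with median centring, without any WT library or without replicate 1 of the sod-3 double (adjusted p 0.0542 to 0.121). Limma thus called 2 of 17 higher than WT in each double, and 1 lower in the sod-3 double. Of all tested genes it called 10.4% higher and 6.57% lower in the sod-3 double, and 14.1% and 10.2% in the sod-5 double. With edgeR and DESeq2 4 and 4 of the 17 were called in the sod-3 double, and 3 and 4 in the sod-5 double. Against isp-1, 0 of 17 were called in either double by limma, edgeR or DESeq2, with 1 at an unadjusted p below 0.05 in each.

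Of 23 genes for transmitter synthesis, loading, uptake and breakdown 20 were tested. Against WT the glutamate transporter gene glt-1 was lower in both doubles, at 69.2 ± 11.5 CPM in the sod-3 double and 75.6 ± 12.2 CPM in the sod-5 double against 113.4 ± 8.27 CPM (log2 -0.72 and -0.59, adjusted p = 0.00300 and 0.00804), and it was the only gene of this list called by limma. In each double against WT this is 1 of 20 by limma, and edgeR and DESeq2 called 2 each. Of all tested genes limma called 6.57% lower in the sod-3 double and 10.2% in the sod-5 double. In isp-1 against WT 0 of 20 were called by limma and 1 each by edgeR and DESeq2, with 2 at an unadjusted p below 0.05. In the sod-3 and the sod-5 double against isp-1 0 were called by limma, edgeR or DESeq2, with 2 and 1 at an unadjusted p below 0.05. Of the 18 pan-neuronal genes, 4 were higher in the sod-3 double than in WT (ida-1, egl-21, sbt-1 and egl-3) and 3 in the sod-5 double (sbt-1, ida-1 and egl-21). Over all tested genes 10.4% and 14.1% were called higher in these comparisons, and the median log2 difference of the 18 was 0.03 and -0.02. The log2 differences of the called genes in the sod-3 double ran from 0.41 for egl-3 to 0.75 for ida-1 (adjusted p = 0.0180 and 0.00106). In the sod-3 double the egl-3 call was lost without WT replicate 2 or 3 (adjusted p 0.0613 and 0.0883) and the sbt-1 call without WT replicate 2 (adjusted p = 0.0513). The part of such neuronal genes in the channel genes' values against WT was not tested.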

How the data were processed

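The authors deposited CPM values (read counts per gene scaled to a common library total) for 12 libraries. The build WBcel235 and the tools edgeR 3.14.0, R 3.3.0, featureCounts 1.4.6, Subread 1.5.0, FastQC 0.11.3 and bcl2fastq 2.17.1.14 are listed, without roles, in the submitters' processing notes, and per the labels a stranded kit was used. Each column sums to 1000000, and 100.0% of values were whole multiples of 1 read within 0.001 reads, which gave the reads and depths. Every gene in the matrix exceeds 1 CPM in at least 2 libraries.

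In R 4.3.3, limma 3.58.1 (trend, robust) was run on log2(CPM + 0.5) for 14013 genes above 1 CPM in at least 3 libraries. All 12 libraries entered a single fit by genotype, two-sided, with Benjamini-Hochberg adjustment over all tested genes and calls below 0.05. Folds come from this scale and understate changes of low genes. Errors are SE of log2 differences or SD of CPM. Limma, edgeR and DESeq2 were also run on simulated counts in which genes were changed in isp-1 only. That run does not bear on the double mutants, and no conclusion is drawn from it. Alternatives were other filters, pseudocounts and scalings, edgeR 4.0.16 and DESeq2 1.42.0 on recovered reads, a replicate block, the compared groups alone and each library left out. For genes other than the channels these were added after the data were seen.

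Names, coordinates (1-based) and exon lengths come from Ensembl release 115 of WBcel235, which holds 14250 of the 14326 identifiers. Named are channel genes called in any comparison, the 3 highest per name group by CPM per kb, those with non-overlapping, at least 2-fold different libraries between isp-1 and WT, and called genes of the lists. Others are said to be chosen after seeing values or are given as known transmitter receptors. The members and lists were chosen with earlier results of these data known. Protein sequences were not used here, so a planned grouping by sequence was not made.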

Additional observations from a re-analysis of the deposited data

How the results depend on the processing

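The number of channel genes called, 3 in isp-1 against WT, became 8 when only those groups were fitted, and the 1 call of the sod-3 double against isp-1 became 0. Of all tested genes 40.7% and 0.756% were called in those fits, against 20.0% and 1.08% in the main fit. With a replicate block, the 7 calls of the sod-5 double against WT became 4, and the counts in the other comparisons were 3, 1, 1, 4 and 0. The block took the share of all tested genes called in the sod-5 double against WT from 24.3% to 19.6%. Calls lost under the block were those of lgc-28, lgc-40 and lgc-47 in the sod-5 double (adjusted p = 0.0737, 0.0501 and 0.0627), lgc-25 in the sod-3 double (0.0571) and sol-2 in isp-1. The numbers do not pair the libraries: of 18 same-numbered pairs 5 had a correlation of deviations over 0.1 (range -0.55 to 0.33), and 2 of 12 libraries correlate best with their own number. Leaving out each library in turn gave 0 to 5 calls in isp-1 against WT, with 0 without WT replicate 1 or 2 or isp-1 replicate 1 or 3, and 5 without replicate 3 of the sod-3 double. It gave 0 to 1 in the sod-3 double against isp-1, 1 throughout in the sod-5 double against isp-1, and 0 throughout between the doubles. Against WT it gave 2 to 6 in the sod-3 double and 3 to 9 in the sod-5 double. Of all tested genes the same fits called 7.76% to 25.6% in isp-1 against WT. For the sod-3 and the sod-5 double against WT they called 8.64% to 25.2% and 13.3% to 29.7%. Against isp-1 they called 0.635% to 1.63% in the sod-3 double and 0.635% to 1.86% in the sod-5 double. Over the 17 calls and 23 alternatives, 329 values kept the direction and the call, 62 kept the direction and lost the call, and 0 reversed. Omitting a library of a group not compared, the replicate block and the fit of the compared groups alone leave the log2 difference unchanged. The direction could not reverse in those fits, and the 17 calls were picked in the same data, so the 0 says little. The median log2 difference moved by less than the replicate spread in all 138 alternative values. That cut was the middle of the within-group SDs of single channel genes (0.14 to 0.38), while the medians judged lay between -0.10 and 0.10. A change of direction could thus have passed as unmoved, and no conclusion is drawn from it. The cause of each lost call was not tested, except that leaving out libraries leaves fewer samples. Low reads limit the precision: 24 of 51 channel genes averaged under 2 CPM.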

Other observations

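Within 20 kb of lgc-54, 6 other genes were tested, including the cuticle collagen genes col-141, col-142 and col-143. Against isp-1 1 of the 6, T15B7.1, rose in each double. In the sod-3 double col-143 was lower than in isp-1 (log2 -0.76, adjusted p = 0.00316), and in the sod-5 double it did not pass (log2 -0.46, adjusted p = 0.0744). Against WT col-143 rose in isp-1 (log2 1.07, adjusted p = 5.2e-05), and col-142 rose in isp-1 (log2 0.98, adjusted p = 0.00491) and in both doubles. In the sod-5 double against WT 4 of the 6 were higher (T15B7.1, hpo-8, col-142 and col-143) and T15B7.14 was lower (log2 -0.91, adjusted p = 0.0290).

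The summed level of the 51 channel genes was 205.2 to 227.2 CPM in WT and 187.5 to 218.5 CPM in isp-1. It was 174.6 to 279.4 CPM in the sod-3 double and 169.4 to 260.9 CPM in the sod-5 double, so each double ranged from below all WT libraries to above them.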
